A study of Mus musculus with 16 samples.

Results

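Complement and coagulation factors that the liver secretes into plasma were followed across diet, PPARα activation and body weight class. The set holds 37 listed genes of both cascades. A gene entered through the transcript clusters that the platform annotation assigns to it alone, and where it had several the cluster with the highest mean was taken. By this rule 32 of the 37 genes were measured, and all 32 passed the filter on low values, among 14275 genes tested on the array. C4b, Masp2 and Klkb1 lay only in clusters shared with another gene, and C3 and Cpb2 were not analysed here.

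The livers came from 16 male C57BL/6J mice aged 12 months, 1 array per mouse, which had been on their diets from 9 weeks of age. CR mice were held at 30% calorie restriction with food given daily. INT mice, whose regimen the labels call an intermittent diet (ID), changed each week between MF ad libitum and 40% calorie restriction, and the last week was one of MF. MF mice ate a diet of medium fat content (25% of energy) and C mice the AIN-93W control diet, both ad libitum. All mice were fasted for 4 h, received a gavage and were fasted for another 6 h until death. The paper states that CR portions were given at a fixed time of day, whereas mice fed ad libitum could eat until the fast. Time since the last meal may therefore differ between CR and the other diets, and it cannot be told apart from the CR diet. Wy mice received 160 mg/kg of Wy-14643, which activates the nuclear receptor PPARα, and mock mice its solvent, 0.5% carboxymethyl cellulose. Within each diet, mice of a high and of a low body weight class were paired, 1 Wy and 1 mock mouse per pair, which gave 8 pairs and 2 mice in each combination of diet and treatment. Arrays are named here by class, diet and treatment (high CR Wy).

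Complement is a cascade of plasma proteases and binding proteins. The classical and lectin pathways start it through C2, C4 and the mannose-binding lectins with their proteases, the alternative pathway amplifies it through C3 and factor B, and the terminal components C6, C8 and C9 assemble into the membrane attack complex. Coagulation runs through protease zymogens, several of which need vitamin K-dependent gamma-carboxylation, to thrombin, which turns fibrinogen into fibrin. Antithrombin, heparin cofactor II and the protein C system restrain it, and plasmin dissolves the clot. Hepatocytes are the main source of most of these proteins, whereas properdin (Cfp) is known to come mainly from leukocytes.

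Values are log2 intensities. Medians per array ranged over 7.07 to 7.21 across the tested genes and correlations between arrays over 0.982 to 0.994. No array copied another, the smallest root-mean-square difference being 0.202. The measured set spanned 7.49 to 13.2 over all arrays. All 7 hepatocyte markers passed the filter, and their summed linear intensity lay between 47330 and 54080 in Wy livers, against 50940 to 59670 in mock livers. The fitted log2 Wy minus mock was -0.39 for Tat and -0.32 for Cps1. For Alb, Ttr, Apoa1, Asgr1 and Hpd it lay between -0.12 (Hpd) and -0.003 (Apoa1). In whole liver, fewer cells of a type and less RNA per cell cannot be told apart. Array codes in the labels were of 1 kind for 14 arrays and of another for 2, the high INT Wy and high INT mock arrays. Each array is another mouse, so p-values measure the spread between mice, and the number of arrays limits the precision. Genes with an adjusted p under 0.05 were called (limma, Benjamini-Hochberg over all tested genes), and errors beside a log2 change are standard errors of the fit.

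**Figure D1:**
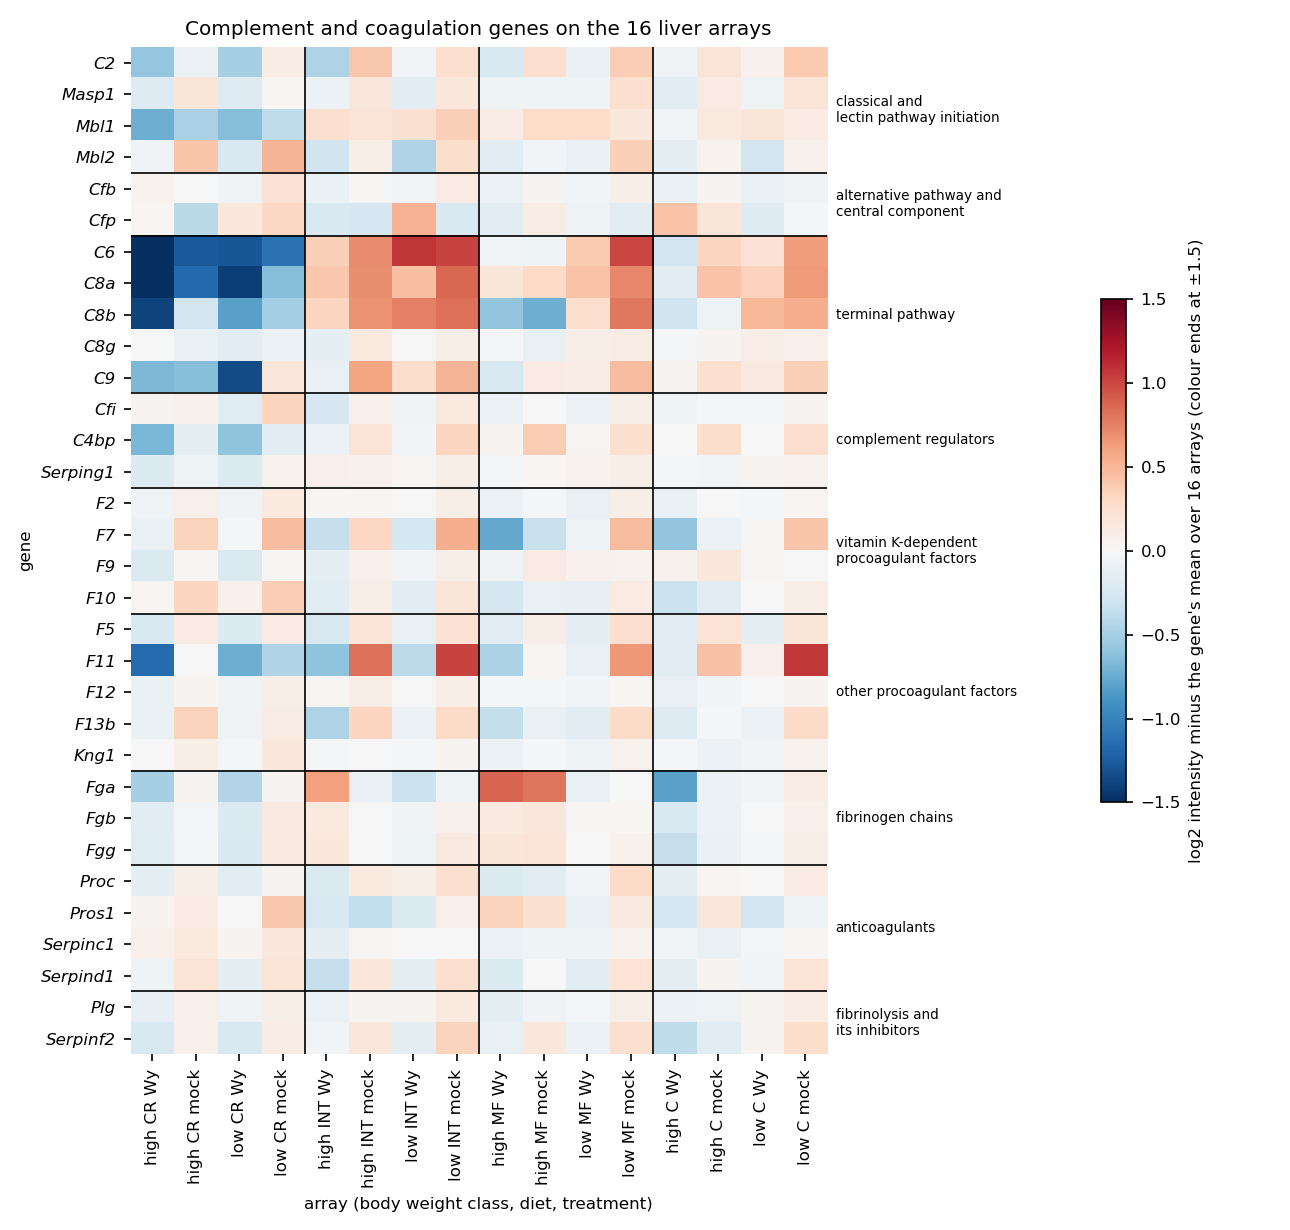
Heat map of the 32 measured genes (rows, by role) on the 16 arrays (columns, by diet), coloured by log2 intensity minus the gene's own mean over all arrays. C6, C8a and C8b are low in the 4 CR columns at the left, F11 alternates between Wy and mock columns, and C8g stays near its mean throughout.

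Calorie restriction was compared with the control diet to see which secreted factors differ under long-term CR. In CR livers 8 of the 32 genes were lower, where 5.98% of all tested genes were called lower, and 1 gene was higher, where 4.54% were called higher. Of the 8, 7 belong to complement and 1 to coagulation. Of 5 terminal pathway genes 4 fell, of 4 measured initiation genes C2 and Mbl1 fell, and of 3 regulators C4bp fell. The coagulation genes that moved were F11, which fell, and F10, which rose. The 23 genes without a call lay between -0.16 (F9) and 0.25 (Pros1), and the median over the 32 genes was -0.01, as over all tested genes.

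Among the terminal components, C6 read 8.55, 8.94, 8.93 and 9.10 in CR livers (high Wy, high mock, low Wy and low mock, the order kept below), against 9.92, 10.53, 10.43 and 10.84 in C livers. Every CR value lay below every value of the other 3 diets. The fitted change of C6, which binds to C5b at the start of the membrane attack complex, was -1.55 ± 0.12 or 2.93-fold (adjusted p = 1.82e-05, n = 4 mice per diet). C8a, the alpha chain of C8, read 8.93, 9.81, 9.57 and 10.35 in CR livers, against 10.81, 11.40, 11.33 and 11.62 in C livers. Its change was -1.63 ± 0.12 or 3.09-fold (adjusted p = 1.38e-05), and again no CR array reached any other array.

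C8b, the beta chain of C8, read 9.72, 10.84, 10.30 and 10.60 in CR livers, against 10.81, 11.04, 11.61 and 11.65 in C livers. These groups touch, since high CR mock lay just above high C Wy. The fall of C8b was -0.91 ± 0.21 (adjusted p = 0.0142), and the call was lost without high CR Wy (adjusted p = 0.0519) or low C Wy (adjusted p = 0.0517). C9, which polymerises into the pore, read 10.54, 10.58, 9.87 and 11.39 in CR livers, against 11.26, 11.47, 11.35 and 11.58 in C livers. The low CR mock liver thus lay among the C livers while the other 3 were below them, and the change was -0.82 ± 0.18 (adjusted p = 0.0110). C8g, the gamma chain of C8 and a member of the lipocalin family, lay between 12.14 and 12.30 in CR livers and between 12.28 and 12.40 in C livers, and it was not called. The chains of 1 protein thus fell by 3.09-fold (C8a) and 1.88-fold (C8b) or were not called (C8g). C8g read above C8a and C8b on all arrays. Array values compress changes near saturation and are not comparable in level between genes, so the chains cannot be ranked by the size of their change.

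**Figure D2:**
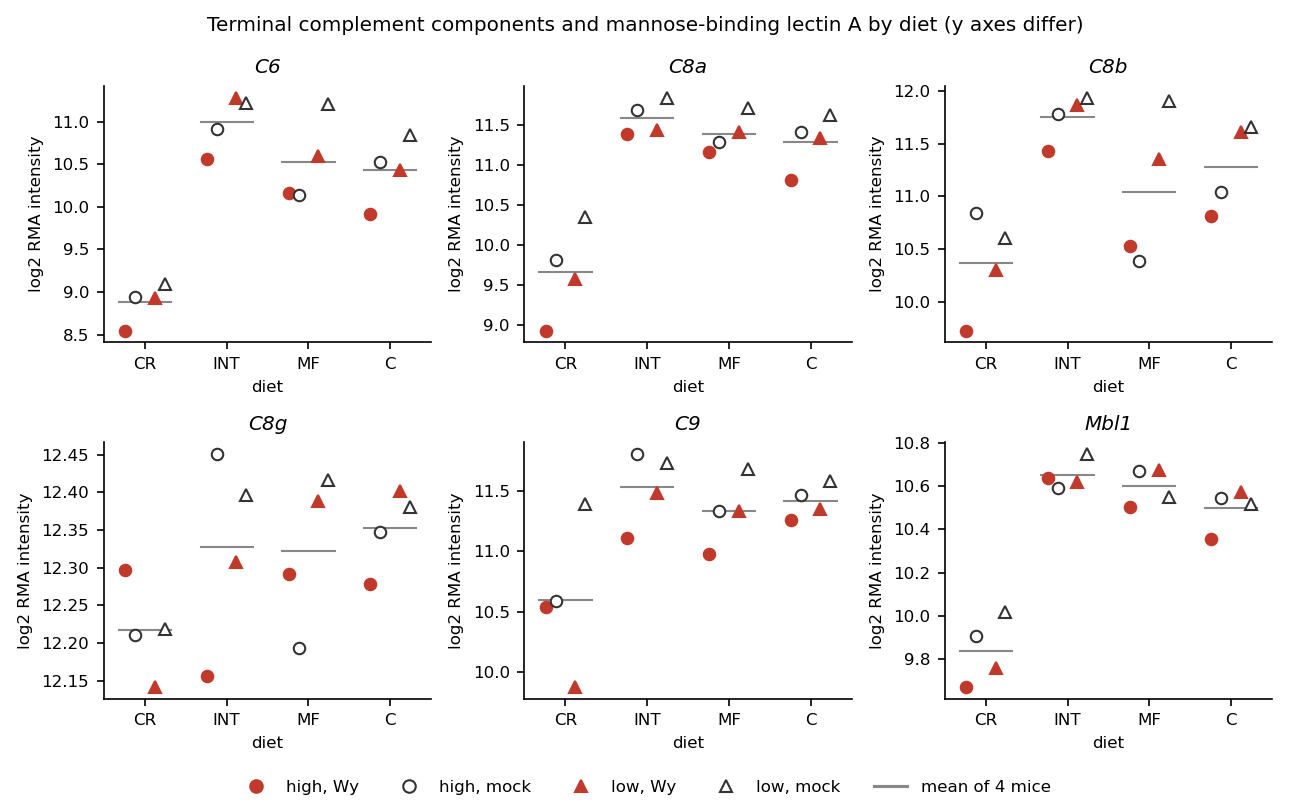
Log2 intensity of 5 terminal complement genes and Mbl1 by diet, with 1 point per liver (filled, Wy; open, mock; circles, high; triangles, low body weight) and a line at the mean of 4 mice. The 4 CR livers lie below all other livers for C6, C8a and Mbl1, and C8g stays between 12.14 and 12.45 on every diet.

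The promoters of the 4 terminal genes that fell are shown because these genes moved together and 2 of them, C8a and C8b, are neighbours on chromosome 4. Each runs from 250 bases before to 50 bases after the RefSeq start on GRCm38.p6, written 5′ to 3′ on the gene's strand. They lie at chr15:4726960-4727259 (plus strand, C6), chr4:104876349-104876648 (minus strand, C8a), chr4:104766067-104766366 (plus strand, C8b) and chr15:6445096-6445395 (plus strand, C9). Capitals mark matches to the motifs named below, on either strand.
C6: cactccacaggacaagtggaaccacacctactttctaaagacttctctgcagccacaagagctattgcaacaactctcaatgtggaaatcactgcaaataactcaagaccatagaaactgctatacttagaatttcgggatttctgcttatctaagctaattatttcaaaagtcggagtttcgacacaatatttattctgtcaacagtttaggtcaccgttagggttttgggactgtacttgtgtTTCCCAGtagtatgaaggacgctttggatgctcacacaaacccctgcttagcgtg
C8a: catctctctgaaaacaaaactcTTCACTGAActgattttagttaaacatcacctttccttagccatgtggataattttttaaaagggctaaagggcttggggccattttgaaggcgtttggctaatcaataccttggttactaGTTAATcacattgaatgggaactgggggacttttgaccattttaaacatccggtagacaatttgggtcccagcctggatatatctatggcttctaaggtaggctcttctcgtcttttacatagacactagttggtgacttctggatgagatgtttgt
C8b: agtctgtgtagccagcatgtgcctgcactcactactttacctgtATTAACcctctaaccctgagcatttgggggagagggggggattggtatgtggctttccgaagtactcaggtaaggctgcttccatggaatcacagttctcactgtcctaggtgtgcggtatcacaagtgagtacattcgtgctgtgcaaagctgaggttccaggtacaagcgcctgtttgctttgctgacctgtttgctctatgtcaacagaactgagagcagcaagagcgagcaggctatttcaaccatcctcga
C9: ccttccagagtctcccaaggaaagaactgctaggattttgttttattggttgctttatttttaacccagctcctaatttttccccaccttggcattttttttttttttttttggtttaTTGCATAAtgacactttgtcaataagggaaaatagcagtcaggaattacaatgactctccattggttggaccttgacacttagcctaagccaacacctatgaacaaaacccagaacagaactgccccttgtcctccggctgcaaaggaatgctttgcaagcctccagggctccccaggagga

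The motifs searched are those of factors known to act on liver promoters, and a match is a description of letters only. C8a held the HNF1 motif GTTAAT from position -107 to -102 and a STAT motif (TTCNNNGAA) from -228 to -220, and C8b held GTTAAT on the other strand from -206 to -201. C9 held the C/EBP motif TTGCNNAA from -132 to -125, and C6 the STAT3 motif CTGGGAA on the other strand from -5 to 2. No match overlapped another in these 4 promoters. Promoters were found for 28 of the 37 genes, as 29 sequences. GTTAAT was present in 8 of these 29 and in 7.1% of 32851 mouse promoters, and TTGCNNAA in 9 and in 10.8%. TTCNNNGAA was present in 6 and in 8.3% of all promoters, and CTGGGAA in 5 and in 11.1%. The HNF4 motif CAAAGTCCA was in 0 of the 29 and 0.475% of all. A pair of AGGTCA repeats separated by any single base, the element type that PPARα is known to bind, was in 0 of the 29 and 0.0396% of all. The E-box CACGTG (0 of 29, 7.15% of all) and the TATAAA box (2 of 29, 13.6% of all) complete the search.

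Outside the terminal pathway, Mbl1 (mannose-binding lectin A, which recognises microbial sugars) read 9.67, 9.91, 9.76 and 10.02 in CR livers, against 10.35, 10.55, 10.57 and 10.52 in C livers. The fall was -0.66 ± 0.07 (adjusted p = 0.000185), and all 4 CR livers were below all 12 others. Mbl2, the other mannose-binding lectin, lay between 9.18 and 9.92 in CR livers and between 9.14 and 9.48 in C livers, without a call. C4bp, a cofactor that limits the classical pathway convertase, read 10.997, 11.53, 11.08 and 11.53 in CR livers, against 11.69, 11.95, 11.68 and 11.94 in C livers. It fell by 0.53 ± 0.06 on the log2 scale (adjusted p = 0.000297), and the CR values again lay below all others. C2, the protease of that convertase, read 8.95, 9.44, 9.03 and 9.64 in CR livers, against 9.48, 9.72, 9.60 and 9.93 in C livers, and fell by 0.42 ± 0.08 (adjusted p = 0.00719). Its groups overlapped, with each CR liver below the C liver of the same class and treatment.

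Of the coagulation factors, F11 (factor XI of the intrinsic pathway) read 7.49, 8.63, 7.90 and 8.18 in CR livers, against 8.46, 9.07, 8.72 and 9.70 in C livers. The change was -0.94 ± 0.18 or 1.92-fold (adjusted p = 0.0045), with high CR mock inside the C range. F10, whose active form turns prothrombin into thrombin, was higher, at 10.83 to 11.17 in CR livers and 10.47 to 10.90 in C livers (0.30 ± 0.07, adjusted p = 0.0138). This call was lost without high C mock (adjusted p = 0.0553). F7, which lies next to F10 in the genome, was at 0.23 ± 0.12 and had no call. Prothrombin (F2), F5, F12, F13b, Kng1, the 3 fibrinogen chains, the 4 anticoagulants, Plg and Serpinf2 were not called either. Among these, antithrombin (Serpinc1) lay at 12.77 to 12.89 in CR livers, above every C liver (12.63 to 12.74). How many of all tested genes had no overlap between CR and C livers was not worked out.

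The CR minus MF comparison uses the same 4 CR arrays, so it is given beside the first and not as a repeat of it. In it 7 genes were lower in CR livers (6.87% of all tested genes) and 1 was higher (5.79%). C8a (-1.72 ± 0.12), C6 (-1.65 ± 0.12), Mbl1 (-0.76 ± 0.07) and C4bp (-0.57 ± 0.06) fell, and so did C9 (-0.73 ± 0.18), F11 (-0.61 ± 0.18) and C2 (-0.34 ± 0.08), while F10 rose (0.29 ± 0.07). C8b was at -0.67 ± 0.21 (adjusted p = 0.0501). The CR values of C6, C8a, Mbl1 and C4bp lay below all MF values. The other 4 calls were lost without the high MF pair, a choice made after seeing the data (adjusted p between 0.0729 and 0.158). Single arrays mattered too, with the C9 call lost without high CR mock or low MF Wy (adjusted p = 0.0527 and 0.0536), the C2 call without high CR Wy or high MF mock (0.0528 and 0.0517), and the F11 call without any of 5 arrays, which were high CR Wy, high MF Wy, low CR mock, low MF mock and low MF Wy, and after centring each array on its median (0.0545).

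**Figure D3:**
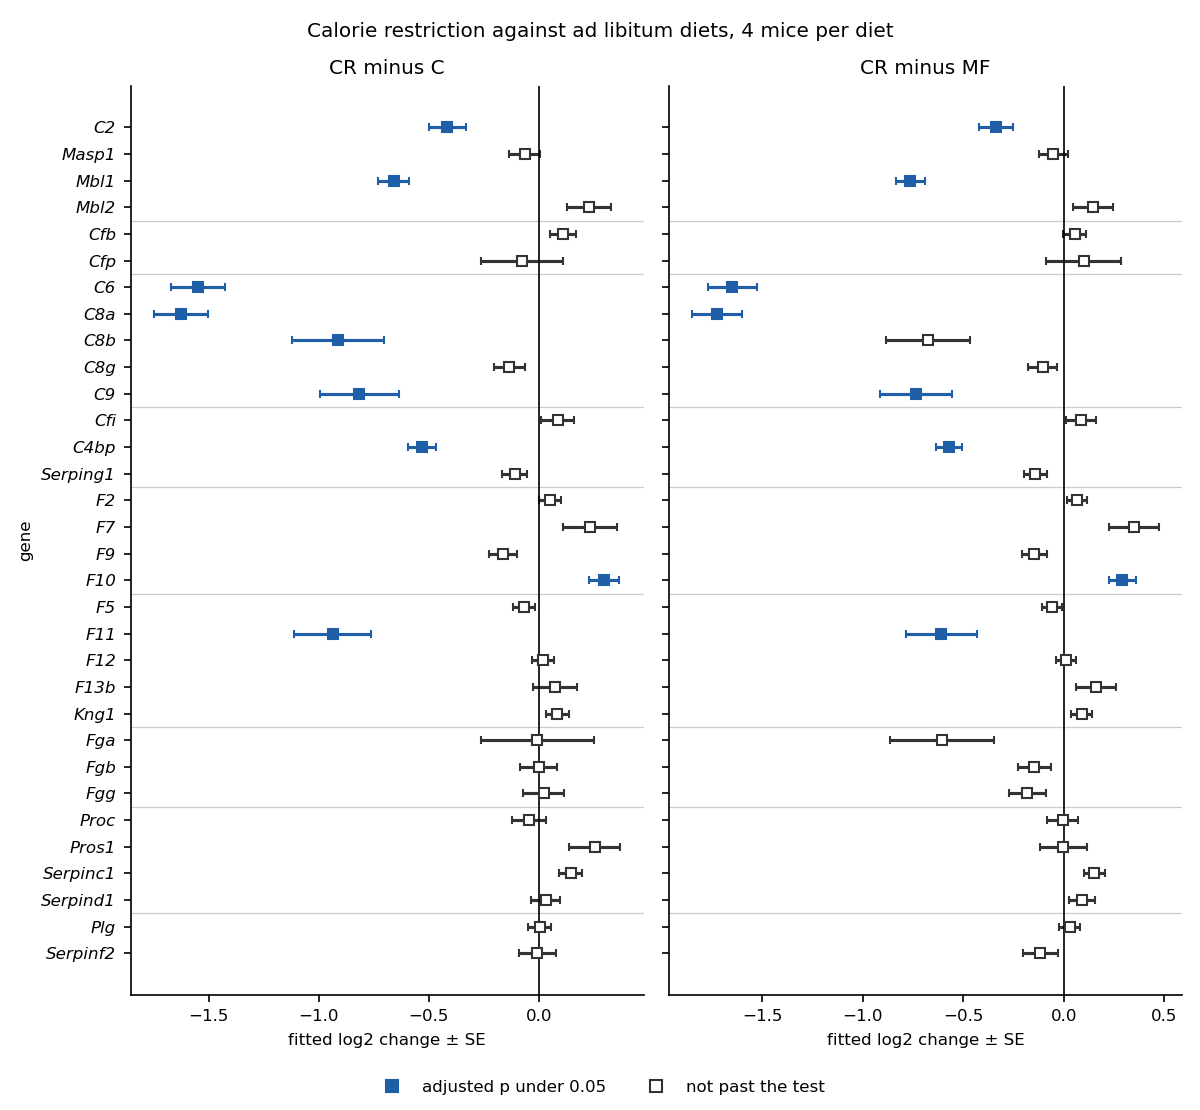
Fitted log2 change ± SE of each measured gene for CR minus C (left) and CR minus MF (right), 4 mice per diet, with filled squares for genes called. C6 and C8a lie between -1.72 and -1.55 in both panels, F10 lies above 0 in both, and most coagulation genes lie near 0.

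INT minus CR, which shares those CR arrays too, asks how mice killed in an ad libitum week compare with continuous restriction. In INT livers 8 genes were higher (5.57% of all tested genes) and 0 lower. C6 read 10.56, 10.92, 11.28 and 11.22 in INT livers, against the CR values given above, a difference of 2.12 ± 0.12 or 4.34-fold (adjusted p = 1.61e-06). C8a was higher by 1.92 ± 0.12 (3.78-fold), C8b by 1.39 ± 0.21, C9 by 0.94 ± 0.18 and Mbl1 by 0.81 ± 0.07. C4bp (0.50 ± 0.06), F11 (0.80 ± 0.18) and C2 (0.30 ± 0.08) were the remaining calls. For C6, C8a, C8b, Mbl1 and C4bp every INT liver was above every CR liver. Antithrombin (Serpinc1), without a call, lay at 12.59 to 12.74 in INT livers, below every CR liver (12.77 to 12.89). Here too the share of all tested genes without overlap was not worked out. On the 14 arrays of the first code alone the calls of C9, F11 and C2 were lost (adjusted p = 0.0761, 0.106 and 0.0936). C2 was also lost without any of 6 arrays (high CR mock, high CR Wy, low CR mock, low CR Wy, high INT mock or low INT Wy), after centring each array (adjusted p = 0.081) and without the high MF pair (adjusted p = 0.0556).

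Between the diets other than CR no gene of the set was called. MF minus C had 0 calls among the 32 genes and 0% of all tested genes, with 3 of the 32 at an unadjusted p under 0.05. INT minus C had 0 calls among the 32 and 0.00701% of all genes, with 4 unadjusted, and INT minus MF had 0 among the 32 and 0%, with 3 unadjusted. Without the share of all tested genes at that unadjusted threshold, these counts are not a result about the set. C6 had the smallest p in INT minus C (0.57 ± 0.12, adjusted p = 0.145). It lay between 10.56 and 11.28 in INT livers, overlapping the C livers at 9.92 to 10.84. Mbl1 lay between 10.59 and 10.75 in INT livers, above every C liver (10.35 to 10.57). C6, C8a, C8b and Plg were higher in all 4 INT livers than in the C and MF livers of the same class and treatment. Fga and Pros1 were lower in all 4 INT livers than in the matching MF livers. Both comparisons use the same INT arrays. How many of all tested genes show such a run, or no overlap between diets, was not worked out, so these patterns are not a result about the set. Restricting the diet fits to mock arrays leaves 2 livers per diet, and then C8a was the remaining call in CR minus C and in CR minus MF, and C6 and C8a those in INT minus CR.

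Other genes of the same systems are given beside these. Of 23 further complement and coagulation genes of hepatocytes, C1s1 (-0.31 ± 0.06), the protease that cleaves C4 and C2, and Clu (-0.24 ± 0.06), clusterin, fell in CR minus C. In the vitamin K list of 6 tested genes, the quinone reductase Nqo1 was higher in CR minus C (0.84 ± 0.25) and lower in INT minus CR (-1.38 ± 0.25). Of 19 acute phase genes 2 were lower in CR minus C (Saa4 and Orm3) and 6 in CR minus MF, among them Saa2 (-4.49 ± 0.98) and Lcn2 (-2.96 ± 0.80). Their summed linear intensity lay between 57190 and 77380 in CR livers, 61510 and 112400 in MF livers and 64940 and 70800 in C livers. Of regulators, Nr1h4, the bile acid receptor FXR, was at -0.41 ± 0.07 and Xbp1, a transcription factor of the secretory pathway, at -0.47 ± 0.14 in CR minus C, and both were called.

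Cell type markers were also looked at for CR. In CR minus C 5.98% of all tested genes were called lower and 4.54% higher, and in CR minus MF 6.87% and 5.79%. In INT minus CR 5.57% were called higher, and the share called lower was not set beside the counts. These shares belong to the counts below and in the paragraph before, which are not read as results about cell types or lists. In CR minus C, 1 of 7 hepatocyte markers was higher (Tat), 2 of 7 stellate cell markers (Col1a1 and Pdgfrb) and 1 of 3 B and plasma cell markers (Cd79b) were lower, and 0 of 5 monocyte-derived macrophage markers was called. The hepatocyte sum lay between 54010 and 59670 in CR livers and between 47330 and 55020 in C livers. The stellate sum lay between 1563 and 2260 in CR livers and between 1804 and 2206 in C livers. Tat and Cps1 were higher in CR minus MF and lower in INT minus CR, 2 of 7 hepatocyte markers in each. In CR minus MF, Col1a1 (-0.56) and Pdgfrb (-0.48) of the stellate list, Lyve1 (-1.32) of the endothelial list, Ccl5 (-0.87) of the T and NK cell list and Cd79a (-0.79) of the B and plasma cell list were lower, and endothelial Kdr (0.47) was higher. In INT minus CR, Cd4 (0.69) of the T and NK cell list and Cd79a (0.82) were higher. The part of these cells in the differences was not tested.

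The Wy comparison asks what PPARα agonist treatment did within 6 h. In Wy livers 16 of the 32 genes were lower and 0 were higher, where 16% of all tested genes were called lower. In 31 of the 32 the change was negative, with a median of -0.19, against -0.01 over all tested genes. The Wy liver was the lower of its pair in all 8 pairs for 18 of the 32 genes, where 10.9% of all tested genes did so. The calls were 3 of 4 measured initiation genes, 3 of 5 terminal genes, 2 of 3 complement regulators, 2 of 4 vitamin K-dependent procoagulants, 3 of 5 other procoagulants, 2 of 4 anticoagulants and 1 of 2 fibrinolysis genes, and 0 of 3 fibrinogen chains.

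Among procoagulants, F7 (factor VII, which starts coagulation with tissue factor) had a lowest, median and highest value of 8.64, 9.24 and 9.44 in Wy livers, against 9.08, 9.79 and 9.96 in mock livers. The change was -0.54 ± 0.05 or 1.45-fold (adjusted p = 2.80e-05, n = 8 pairs), and pairs ranged from -0.81 to -0.40. F11 had 7.49, 8.21 and 8.72 in Wy livers, against 8.18, 9.18 and 9.70 in mock livers. Its fall of 0.89 ± 0.12 or 1.85-fold (adjusted p = 0.000306) was the largest among the 32 genes, and pairs ranged from -1.43 to -0.28. F5, the cofactor of factor X, had 11.42, 11.50 and 11.55 in Wy livers, against 11.76, 11.85 and 11.91 in mock livers. Here the 8 Wy and 8 mock livers did not overlap on any diet, and the change was -0.35 ± 0.04 (adjusted p = 5.89e-05). F13b, the carrier subunit of the fibrin-crosslinking factor XIII, had 10.01, 10.33 and 10.41 in Wy livers, against 10.35, 10.75 and 10.81 in mock livers. It fell by 0.38 ± 0.07 (adjusted p = 0.00138), and F10 fell by 0.23 ± 0.04 (adjusted p = 0.00194). Prothrombin (-0.10 ± 0.04, adjusted p = 0.0768) and F9 (-0.13 ± 0.05, adjusted p = 0.0519) were not called.

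Of the inhibitors, Serpind1, heparin cofactor II, which inhibits thrombin, had 11.69, 11.89 and 12.00 in Wy livers, against 12.03, 12.24 and 12.29 in mock livers. No Wy liver reached a mock liver, and the change was -0.31 ± 0.05 (adjusted p = 0.00052). Serpinf2, the main plasma inhibitor of plasmin, had 11.86, 12.11 and 12.28 in Wy livers, against 12.08, 12.40 and 12.58 in mock livers, a change of -0.30 ± 0.04 (adjusted p = 0.000498). These groups overlapped, though in all 8 pairs the Wy liver was lower. Proc, protein C, fell by 0.19 ± 0.05 (adjusted p = 0.00933). Antithrombin (Serpinc1, -0.06 ± 0.04) and plasminogen (Plg, -0.11 ± 0.04) were not called, nor was protein S (Pros1, -0.18 ± 0.07).

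In complement, C2 had 8.95, 9.37 and 9.60 in Wy livers, against 9.44, 9.78 and 9.93 in mock livers, and fell by 0.47 ± 0.07 or 1.39-fold (adjusted p = 0.000317). Mbl2 had 8.96, 9.22 and 9.36 in Wy livers, against 9.38, 9.59 and 9.92 in mock livers. No Wy liver reached a mock liver, with a change of -0.43 ± 0.07 (adjusted p = 0.00101). Mbl1, in contrast, was at -0.09 ± 0.05 without a call, and Masp1, a protease that circulates with these lectins, fell by 0.26 ± 0.05 (adjusted p = 0.0021). C4bp had 10.997, 11.66 and 11.72 in Wy livers, against 11.53, 11.93 and 12.06 in mock livers. It fell by 0.34 ± 0.05 (adjusted p = 0.000279), in all 8 pairs by 0.21 to 0.54.

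Of the terminal genes, C8a fell by 0.46 ± 0.08 (adjusted p = 0.00171) in all 8 pairs, and C6 fell by 0.31 ± 0.08 (adjusted p = 0.0142) in 6 of 8. C9 fell by 0.46 ± 0.14 (adjusted p = 0.0263), where the low CR pair stood apart at -1.52 and the others lay between -0.70 and -0.04. The C9 call was lost without high INT mock or high INT Wy (adjusted p = 0.0657). Cfi, factor I, which cleaves C3b and C4b, fell by 0.18 ± 0.06 (adjusted p = 0.036). Leaving out either array of the high INT, low CR, low MF or low INT pair ended the Cfi call (adjusted p between 0.0671 and 0.0825), as did centring each array (adjusted p = 0.0744). C8b was at -0.31 ± 0.11 (adjusted p = 0.0624) and C8g at -0.04 ± 0.05. Properdin (Cfp, 0.12 ± 0.10), which is mainly of leukocytes, was the 1 gene with a positive change. Factor B (Cfb) was at -0.12 ± 0.04 and C1 inhibitor (Serping1) at -0.07 ± 0.04, neither called.

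**Figure D4:**
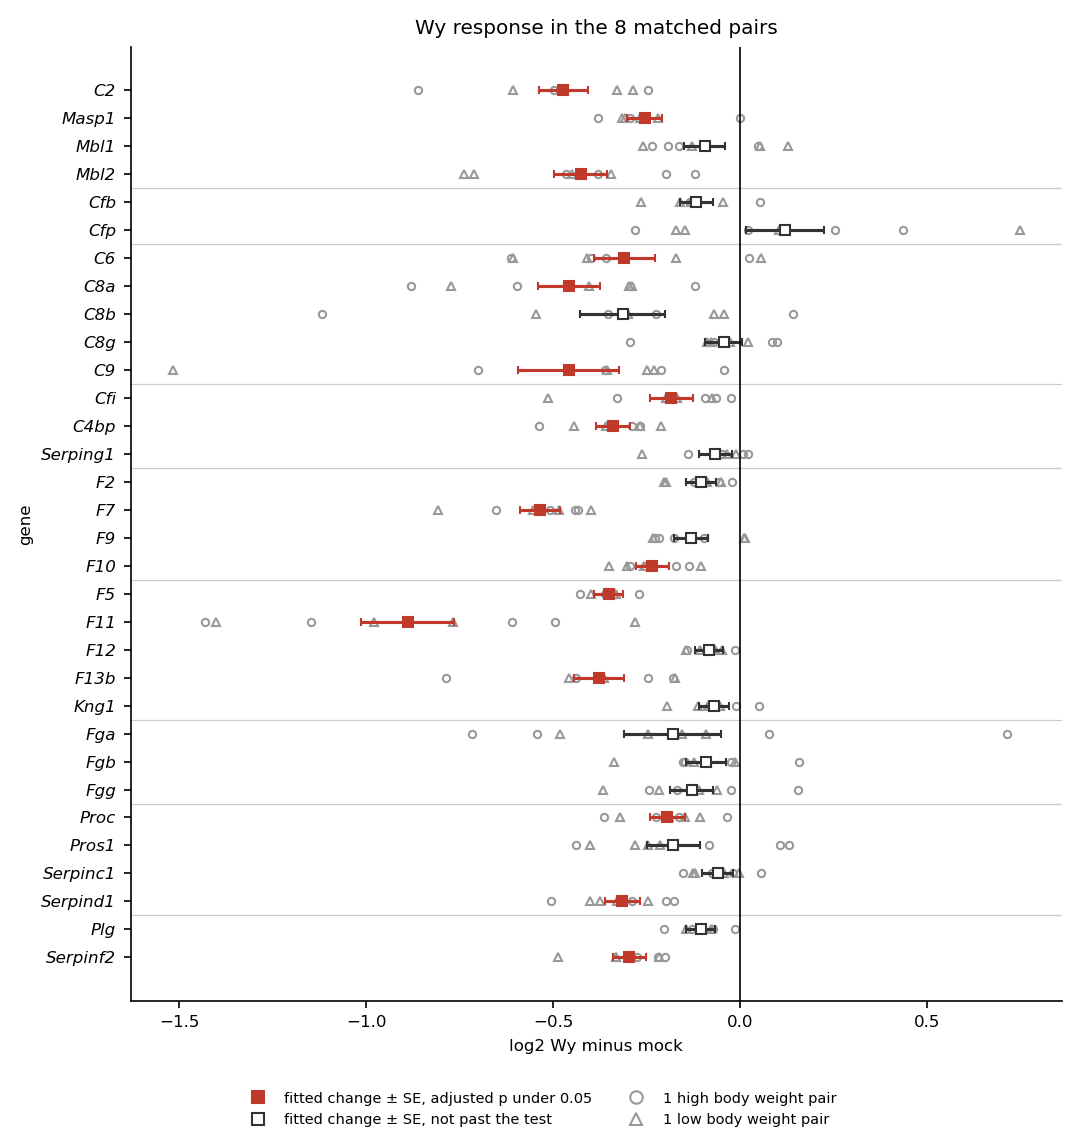
Log2 Wy minus mock of each measured gene, with the fitted change ± SE (squares, red where called) and the 8 matched pairs in grey (circles, high; triangles, low body weight). Nearly all squares lie left of 0, F11 lies at -0.89, and the pair values of the fibrinogen chains lie on both sides of 0.

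The fibrinogen chains showed another pattern. Fga, the alpha chain, was highest on high MF Wy (12.39), high MF mock (12.32) and high INT Wy (12.13), and the other 13 arrays lay between 10.71 and 11.63. Fgg, the gamma chain, was likewise highest on these 3 arrays, in the same order, at 13.19, 13.22 and 13.17, and Fgb, the beta chain, read 13.08, 13.11 and 13.09 there, with low CR mock next at 13.08. Of the acute phase genes, Saa2 and Lcn2 were looked at on the same arrays after their values were seen. In the order given for Fga, Saa2 read 12.72, 12.66 and 11.62, against 5.28 to 11.27 on the other 13 arrays, and Lcn2 read 13.04, 13.02 and 12.25, against 8.05 to 11.98. Fga did not follow them in the low MF pair, where Wy minus mock was 3.02 for Saa2 and 3.13 for Lcn2 but -0.09 for Fga. No fibrinogen chain was called in any comparison. The CR minus MF calls without the high MF pair are those given above.

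The response to Wy did not pass a test of difference between diets (0 of 32 genes called, 0% of all) or between body weight classes (0 of 32, 0% of all). At an unadjusted p under 0.05 the counts were 1 (C8a, by diet) and 0, and the share of all tested genes at that threshold was not set beside them. The limma F test of C8a by diet had an adjusted p = 0.997. With 2 pairs per diet, the pair differences of C8a were -0.88 and -0.77 in CR, -0.29 and -0.40 in INT, -0.12 and -0.30 in MF and -0.60 and -0.29 in C (high and low).

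Other genes of these systems were also followed under Wy. Of 23 further complement and coagulation genes of hepatocytes 13 were lower and 0 higher, with a median of -0.15. They included Proz (-0.53 ± 0.04), a vitamin K-dependent cofactor in the inhibition of factor X, Kng2 (-0.22 ± 0.05), a kininogen, Cpn2 (-0.40 ± 0.06), a carboxypeptidase N subunit, and C1s1 (-0.29 ± 0.04). Of 6 tested vitamin K genes, Vkorc1, which recycles vitamin K, was lower (-0.25 ± 0.05) and Cyp4f15 higher (0.23 ± 0.06). Of 19 acute phase genes 2 were lower (Saa4 and Cp), and of 16 other secreted hepatocyte proteins 3 were lower. Among 20 regulators 7 were lower and 3 higher. Il6ra, the receptor subunit for interleukin 6, was at -1.05 ± 0.08. Of transcription factors, Foxa3 was at -1.35 ± 0.11, Stat5b at -0.45 ± 0.05 and Nr3c1, the glucocorticoid receptor, at -0.33 ± 0.05. Of 14 secretory pathway genes 6 were lower, with Pdia6 at -0.33 ± 0.07. Of 22 genes of these cascades made mainly by other cells 0 were lower and 2 higher, tissue factor (F3, 0.38 ± 0.13) and ficolin A (Fcna, 0.23 ± 0.06). The share of all tested genes called higher with Wy was not set beside the counts in this paragraph. Of hepatocyte markers 2 of 7 were lower, Tat and Cps1. Of neutrophil markers 1 of 3 was higher (Mmp9, 0.29) and of adipocyte markers 1 of 2 (Plin1, 0.16), and the other 8 cell type lists had 0 calls. The part of these cells in the Wy differences was not tested.

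Body weight class was compared within C and MF, within CR and INT, and over all diets, since the matching by weight gave a high and a low pair on each. In high body weight livers of C and MF, 5 of 32 genes were lower and 0 higher, where 2.72% of all tested genes were called lower. F7 read 8.64, 9.08, 8.82 and 9.33 in high livers (MF Wy, MF mock, C Wy and C mock), against 9.34, 9.89, 9.44 and 9.83 in low livers. No high liver reached a low liver, each class holding 2 Wy and 2 mock mice, and the change was -0.66 ± 0.07 or 1.58-fold (adjusted p = 0.00138, n = 4 mice per class). C8b read 10.52, 10.38, 10.81 and 11.04 in high livers, against 11.36, 11.90, 11.61 and 11.65 in low livers, again with no overlap. The fall of C8b was -0.94 ± 0.16 or 1.92-fold (adjusted p = 0.00924), and the call was lost without low MF mock (adjusted p = 0.0556).

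C6 was lower by 0.58 ± 0.11 in high livers (adjusted p = 0.0145), F10 by 0.23 ± 0.06 (adjusted p = 0.0437) and Serpinf2 by 0.24 ± 0.06 (adjusted p = 0.045). With each array left out in turn the log2 changes stayed negative, at -0.68 to -0.49 for C6, -0.27 to -0.20 for F10 and -0.26 to -0.21 for Serpinf2, but calls were lost. C6 lost its call without high C Wy, high MF mock, low C mock, low C Wy or low MF mock (adjusted p between 0.0527 and 0.0802). F10 lost it without any C or MF array or either low CR array (between 0.0534 and 0.174), and Serpinf2 without any C, MF or CR array (between 0.0522 and 0.164) or with no filter on low values (0.0507). The number called was 3 without high C mock, high MF Wy, low MF Wy or either low CR array, 2 without high C Wy, high MF mock, low C mock or low C Wy, and 1, F7, without low MF mock. Among the 27 genes without a call, F11 was lowest at -0.47 and Cfp highest at 0.26. C8g, Serping1 and Plg, also without a call, were lower on every high liver than on every low liver. The share of all tested genes without overlap between the classes was not worked out, so this separation is not a result about these genes.

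In CR and INT livers, 0 of 32 genes were called between high and low class (0% of all), with 3 at an unadjusted p under 0.05, and C6 was at -0.39 ± 0.11. Both high INT arrays and no low INT array carry the second array code. Within INT, class and code therefore cannot be told apart, here and in the F7 difference below. F7 read 9.32, 9.75, 9.07 and 9.73 in high livers (CR Wy, CR mock, INT Wy and INT mock), against 9.40, 9.88, 9.15 and 9.96 in low livers. The body weight effect on F7 differed between C and MF livers and CR and INT livers by -0.52 ± 0.10 (adjusted p = 0.0485), 1 of 32 genes called where 0.855% of all tested genes were. This call was lost without any 1 of 14 arrays (adjusted p between 0.0606 and 0.139), all but high MF Wy and low INT mock, and with no filter on low values (0.0512). Over all diets together 0 of 32 genes were called (0% of all), with 10 at an unadjusted p under 0.05, all lower in high livers. Without the share of all tested genes at that threshold, neither these 10 nor the 3 within CR and INT are a result about the set. C6 had the smallest p there (-0.49 ± 0.09, adjusted p = 0.146).

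**Figure D5:**
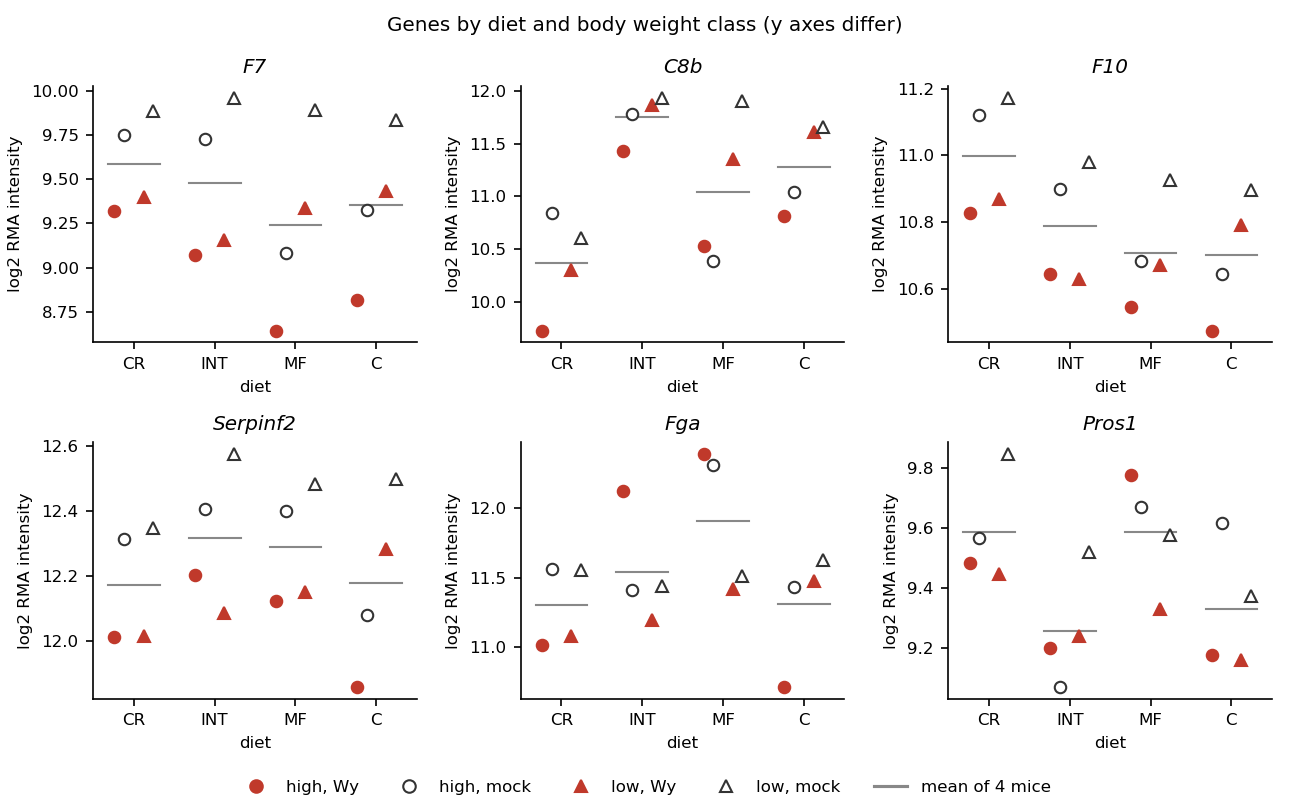
Log2 intensity of 6 genes by diet, with 1 point per liver (circles, high; triangles, low body weight; filled, Wy; open, mock) and a line at the mean of 4 mice. F7 and C8b are lower in the high than in the low livers of MF and C, and Fga is high on both high MF livers and on high INT Wy.

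Markers of other cells moved with body weight class in C and MF. All 5 tested monocyte-derived macrophage markers were higher in high livers, with a summed linear intensity of 654 to 1134 in high livers and 421 to 521 in low livers. Of stellate cell markers 2 of 7 were higher (Col1a1 and Col3a1), with sums of 2121 to 2352 in high livers and 1804 to 2053 in low livers. T and NK cell markers summed to 517 to 686 in high livers and 311 to 421 in low livers, with 1 of 6 higher (Ccl5). Also higher were 2 of 7 endothelial markers (Lyve1, 0.97, and Pecam1, 0.28), 1 of 4 platelet markers (Pf4, 0.38) and 1 of 3 neutrophil markers (Csf3r, 0.37). Of 7 Kupffer cell markers 1 was lower (Timd4, -0.71). Without a call, Marco was at -0.56, Clec4f at 0.03, Cd5l at 0.37, Csf1r at 0.39, Adgre1 at 0.42 and Vsig4 at 0.45. Kupffer cell markers summed to 3475 to 5257 in high livers and 3369 to 3758 in low livers. Of hepatocyte markers 1 of 7 was lower, Cps1, with sums of 47330 to 52220 in high livers and 51140 to 55020 in low livers. The part of these cells in the differences of F7, C8b, C6, F10 and Serpinf2 was not tested.

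Complement and coagulation genes made mainly by other cells moved with class in C and MF, 5 of 22 higher and 2 lower. The share of all tested genes called higher was not set beside this count or those of the markers above. Itgax, a chain of the complement receptor CR4, was at 1.23 ± 0.19 and is also in the macrophage list, and Procr, the endothelial protein C receptor, was at 0.34 ± 0.06. Thrombomodulin (Thbd, 0.95 ± 0.20), the C5a receptor (C5ar1, 0.92 ± 0.21) and C1qb (0.67 ± 0.14) were higher, and Fcna (-0.44 ± 0.09) and F3 (-0.72 ± 0.18) were lower. Of 23 further hepatocyte genes of these cascades 2 were lower, Proz (-0.24 ± 0.06) and Fetub (-0.28 ± 0.07). Of 19 acute phase genes Orm2 (2.22 ± 0.40) and Orm3 (2.69 ± 0.32) were higher.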

How the data were processed

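RNA from whole liver of 16 mice was hybridised to Affymetrix Mouse Gene 1.1 ST arrays, 1 per mouse. The deposited values are log2 intensities that the authors made by RMA (robust multi-array averaging), a background correction followed by quantile normalisation and a summary of probes per transcript cluster. It makes levels comparable between arrays but not between genes, and it compresses changes near background and saturation. Its version was not given in the sources used here. They ran from 1.84 to 13.7 over 35556 transcript clusters. Of these 21218 matched 1 gene, 1881 several and 12457 none in the platform annotation. Clusters with 1 gene were kept, the one with the highest mean per gene, which left 18820 genes. Genes over an intensity of 20 (log2 4.32) on at least 5 arrays were tested, the filter of the study's methods, 14275 in all, and 4545 were left out.

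Comparisons were made with limma 3.58.1 in R 4.3.3, adjusted by Benjamini-Hochberg over all genes tested and called at 0.05. The Wy effect had the matched pair as a block, since the labels pair Wy and mock mice by body weight. Deviations of paired mice correlated at 0.531 in C, 0.564 in MF, 0.0839 in INT and -0.169 in CR. Diet fits had treatment and body weight class as terms, and body weight fits diet and treatment, with a diet by class model for the effects within C and MF and within CR and INT. Alternatives were no filter, centring of arrays, a trended robust prior, the first array code only, the mean of all clusters of a gene, mock arrays only, no block, each array left out in turn and, added after seeing the data, the fit without the high MF pair. The fits were tested on simulated data. Promoters are from RefSeq (GRCm38.p6) and were matched by symbol.

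The genes, lists and tests were chosen with earlier results of these data known. Values per array are given for the 14 genes with the smallest p, every called gene is named, and up to 4 genes are named of each other list, besides the marker genes behind a count. Saa2, Lcn2, F3, C1qb and C5ar1 were named after their values were seen.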

Additional observations from a re-analysis of the deposited data

Results flagged for a closer look

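The body weight effect on F7 differed between C and MF livers and CR and INT livers by a test of the difference (-0.52, adjusted p = 0.0485), with the limits given above.

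Transcript clusters shared with another gene were fitted over 25875 clusters and are outside the comparisons above. The cluster of Cyp4v3 and Klkb1 (plasma prekallikrein) was lower with Wy (-0.37 ± 0.06, adjusted p = 0.00236), lower in CR minus C (-0.38 ± 0.10, adjusted p = 0.0471) and higher in INT minus CR (0.39 ± 0.10, adjusted p = 0.0416). That of Tardbp and Masp2 was lower in CR minus C (-0.21 ± 0.05, adjusted p = 0.039) and higher in INT minus CR (0.20 ± 0.05, adjusted p = 0.0429). Which gene of such a cluster changed cannot be told apart.

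Of 224 groups of values (32 genes in each diet, each treatment and the 8 pair differences), 12 held a value far from the rest by Dixon's criterion. The groups mix diets, classes or treatments and share values, so the criterion's chance rate of about 1 in 20 does not apply to them. In pair differences the outlying values were Masp1 in the high MF pair (-0.0012), C9 in the low CR pair (-1.52), F13b in the high INT pair (-0.79) and Serpinf2 in the low INT pair (-0.49). Among Wy livers it was Cfb on high CR Wy (11.86). Among mock livers they were C9 on high CR mock (10.58), Cfi on low CR mock (12.26) and Fga on high MF mock (12.32). Within diets they were Masp1 (11.30) and Serpinc1 (12.78) on low MF mock, Cfp on low INT Wy (9.43) and Serpinc1 on high INT Wy (12.59).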

How the results depend on the processing

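No change of a called gene reversed under any alternative listed here. The calls kept were 45 of 47 with no filter, 44 of 47 with centred arrays, 47 of 47 with the trended robust prior and with the mean of clusters, and 41 of 46 on the first array code. Without the pairs as a block (no replicate block), 19 genes were called with Wy, all 16 calls among them.

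Apart from the fits with single arrays left out, given below, counts of called genes moved in 6 cases. With no filter the body weight difference had 0 calls (1 with it). On the first array code INT minus CR had 5 (8 on all arrays), and over all genes 378 against 1406. On mock arrays CR minus C had 1, CR minus MF 1 and INT minus CR 2 (9, 8 and 8 on all arrays), with 4 of 25 calls kept. Without the high MF pair CR minus MF had 5 (8 with it), 4 of them shared, and over all genes 522 against 1807. Causes were not tested. The fit with no filter held all 16 arrays and 18820 genes, and the others held fewer arrays.

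Leaving out each array in turn gave 15 to 18 calls with Wy, 8 to 9 in CR minus C, 6 to 8 in CR minus MF and 7 to 8 in INT minus CR. It gave 1 to 5 for body weight in C and MF (3 without high C mock, high MF Wy, low MF Wy or either low CR array), 0 to 1 for the difference and 0 to 1 over all diets (1 without low CR mock). MF minus C, INT minus C, INT minus MF, body weight in CR and INT and both Wy interactions stayed at 0 to 0. Effects of body weight in CR and INT and their difference could not be fitted on the first array code, and no effect by diet group on mock arrays or without the high MF pair. With 2 mice per diet and treatment, few genes with small changes can be called.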

Other observations

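The second transcript cluster of Fga read 10.85 on high MF Wy, 10.75 on high MF mock and 10.19 on high INT Wy, and between 8.04 and 9.57 on the other 13 arrays. The cluster shared by C4a and C4b lay between 11.51 and 12.03 and had no call (-0.15 ± 0.06 for Wy minus mock, adjusted p = 0.121, and -0.22 ± 0.09 for CR minus C, adjusted p = 0.17).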
